A study of Mus musculus with 6 samples.

Results

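Aminoacyl-tRNA synthetases are the enzymes that attach each amino acid to its transfer RNA. The 40 genes described here, of 23420 in the count files, were taken by name: every symbol made of a single letter followed by ars, with or without a final 1 or 2, plus Eprs, Farsa, Farsb, Aimp1, Aimp2 and Eef1e1. They comprise 20 cytosolic synthetase genes, 17 mitochondrial ones (symbols ending in 2) and 3 genes for scaffold proteins of the multi-synthetase complex. All 40 had 10 or more counts in 3 or more libraries, so each was tested. Lars2, the mitochondrial leucine enzyme, was kept apart from the other 16 mitochondrial genes for reasons given with its values.

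RNA came from LSK cells of mouse bone marrow, a sorted fraction (cells without lineage markers that carry both Sca-1 and c-Kit) that holds hematopoietic stem cells and multipotent progenitors. There were 6 mice with 1 library each: 3 bcat(ex3)osb mice, in which β-catenin signalling was permanently active in osteoblasts, and 3 wild-type (WT) littermates. The genetic change was thus placed in the bone-forming cells, while RNA was read from blood progenitors. The labels give no Cre driver, age or sex, and no treatment of either group. P-values set the difference between genotypes against the spread between mice within a genotype, for these 6 mice. Values per mouse are given in the order of mouse 1, 2 and 3 of a genotype.

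Proteins can be made only from charged transfer RNAs, and transfer RNAs are charged separately in the cytosol and in the mitochondrion, where the glutamine transfer RNA is instead charged with glutamate and then amidated by the enzyme that Gatb, Gatc and Qrsl1 encode. In mammals most amino acids have a separate nuclear gene for each compartment, whereas Gars and Kars supply both. Several cytosolic synthetases bind each other through Aimp1, Aimp2 and Eef1e1 in a large complex. Many cytosolic synthetase genes are known targets of ATF4, a transcription factor made when amino acids run short, and Myc is known to promote transcription of genes for protein synthesis.

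The libraries held 15431235 to 19956774 counts, and 13423 to 15102 genes had a count. The 10 LSK markers were all listed, and 9 had negative and 1 positive log2 fold changes (mutant over WT), with a median of -0.42. Ly6a, which encodes Sca-1, was at 81.5, 65.9 and 75.7 CPM in the bcat(ex3)osb mice and at 148, 162 and 156 CPM in the WT mice. CPM is a gene's count scaled to library size. Procr was at 21.1, 24.1 and 28.8 CPM against 44.2, 41.4 and 28.9 CPM. These 2 markers were lower in the mutants without overlap, beside 7.67% of all genes tested. All 7 granulocyte-monocyte markers were higher in the mutants without overlap, beside 6.89% of all genes tested. Their summed level was 6238 to 11247 CPM against 1253 to 3132 CPM in WT. Summed B cell markers were at 67.8 to 475 CPM against 489 to 821 CPM, and summed macrophage markers at 5.10 to 25.3 CPM against 34.9 to 59.0 CPM. Summed mast cell markers were at 80.8 to 283 CPM against 12.6 to 53.4 CPM. Summed megakaryocyte markers were at 58.3 to 160 CPM against 41.4 to 49.7 CPM. Summed neutrophil markers (23.8 to 100 against 11.1 to 128 CPM) and erythroid markers (2.31 to 9.74 against 3.94 to 7.23 CPM) overlapped. The 5 bone and stroma markers summed to 0.710 to 12.2 CPM in the mutants and 6.44 to 25.8 CPM in WT: Alpl was lower in the mutants without overlap (4.79, 0.387 and 1.89 against 16.7, 5.92 and 21.8 CPM), Cxcl12 reached 7.05 and 7.86 CPM in mouse 1 of the 2 genotypes, and Col1a1, Bglap and Lepr were each under 1 CPM in every library. The 3 T cell markers in the files summed to 62.0 to 125 CPM against 114 to 134 CPM, almost all of it from Lck. Cd3e was under 1 CPM in every library (0, 0 and 0.665 against 0.485, 0.520 and 0.0486 CPM) and was not tested. The part of these shifts in cell markers in the values below was not tested, and in bulk RNA a change in the share of a cell type cannot be told apart from a change in RNA per cell. By Xist and Y-linked counts 2 mice were male, both of them mutant, and 4 were female, and bcat(ex3)osb mouse 2 stood apart on principal component 1 (50.8% of variance).

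The synthetase and scaffold genes without Lars2 took 0.426% to 0.537% of all counts in a library. Per gene length, the cytosolic genes stood above the mitochondrial ones: in WT mice the median FPKM (counts scaled by gene length and library total) was 55.9 over the 20 cytosolic genes and 23.7 over the 16 mitochondrial genes. The highest levels per length belonged to Lars2, at 493 ± 277 FPKM (SD, n = 3 WT mice), Vars, the valine enzyme, at 140 ± 53.0, and Farsa, the catalytic subunit of the phenylalanine enzyme, at 128 ± 10.3. The lowest belonged to Wars2, Nars2 and Mars2, the mitochondrial tryptophan, asparagine and methionine enzymes, at 3.84 ± 0.898, 9.95 ± 1.30 and 10.02 ± 1.81 FPKM. Nars2 and Mars2 lay within each other's spread, and Wars2 lay below both.

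**Figure D1:**
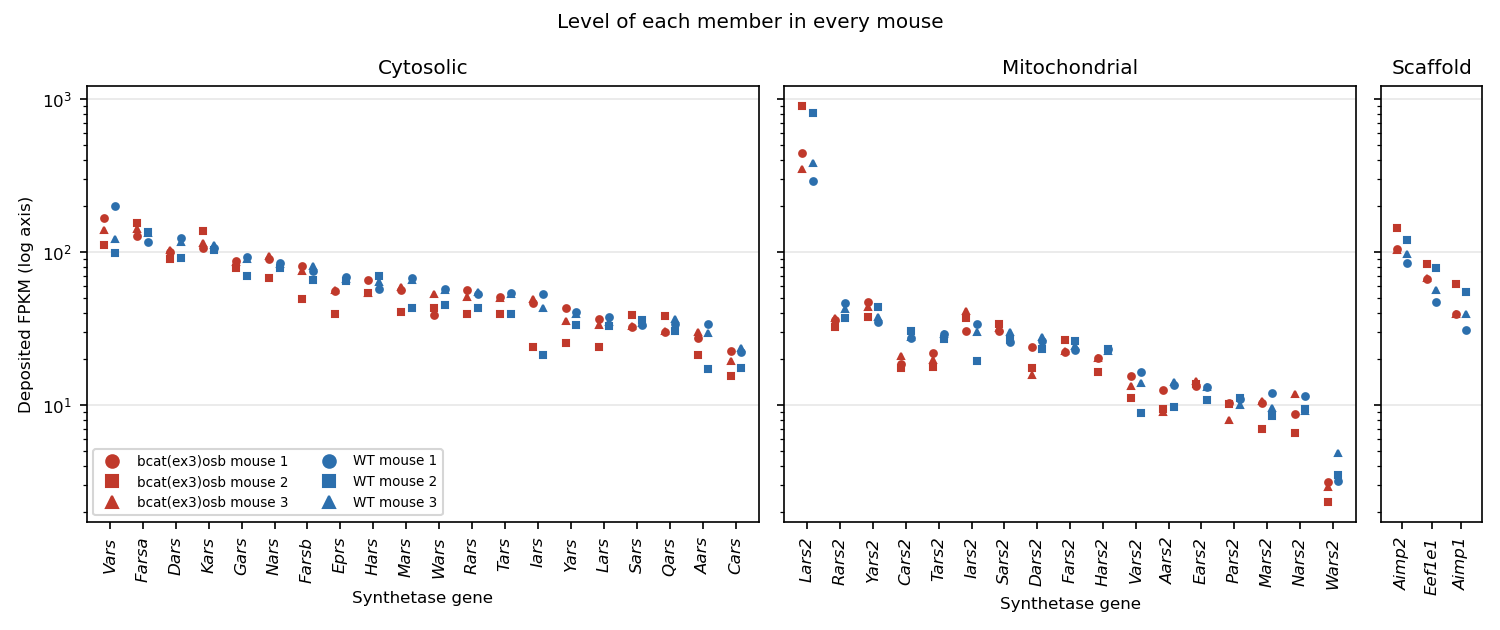
Level per gene length (FPKM, log axis) of the 40 genes in each of the 6 libraries, by location of the encoded protein; blue marks are WT mice and red marks bcat(ex3)osb mice. Cytosolic genes sit mostly above mitochondrial ones, Lars2 lies above all others and Wars2 is lowest.

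For 13 amino acids both a cytosolic and a mitochondrial gene were among the 40, so the pair could be compared within a library. The cytosolic gene had the higher FPKM in every library for 10 of the 13. The WT mean ratio of cytosolic to mitochondrial FPKM ran from 0.744 for cysteine (Cars over Cars2) to 14.2 for tryptophan (Wars over Wars2), with a median of 2.12. Tyrosine was near parity in WT mice, with a ratio of 0.993 ± 0.204 (SD, n = 3). Thus the excess of the cytosolic transcript was common but not universal, and it differed widely between amino acids.

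**Figure D2:**
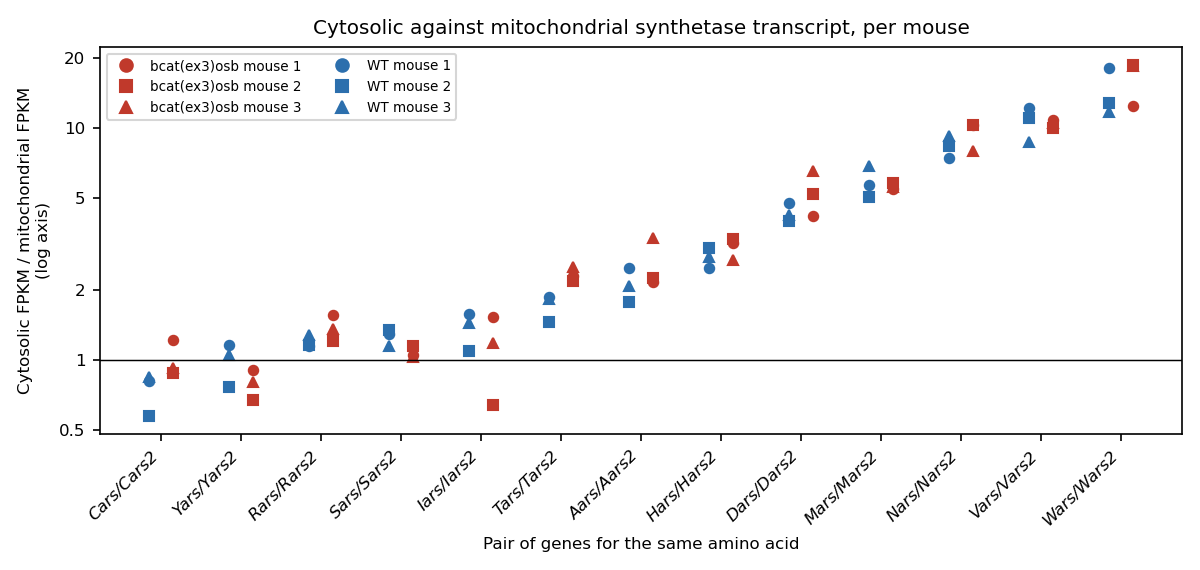
Ratio of cytosolic to mitochondrial FPKM for 13 amino acids (log axis), each mark 1 library, WT in blue and bcat(ex3)osb in red. Cysteine and threonine are the pairs whose red and blue marks do not overlap.

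Between genotypes, 2 of the 13 ratios were separated, both higher in the mutants, and none was separated in the other direction. The Cars to Cars2 ratio was 1.22, 0.883 and 0.928 in the mutants and 0.811, 0.575 and 0.845 in WT. The Tars to Tars2 ratio was 2.31, 2.20 and 2.53 in the mutants and 1.86, 1.45 and 1.83 in WT. The ratios were described and not tested, and the share of separated ratios among other gene pairs was not computed. Log2 fold changes were -0.07 for Cars and 0.01 for Tars, against -0.52 for Cars2 and -0.44 for Tars2. These 2 ratios therefore largely repeat the values of Cars2 and Tars2 given below and are not a further result. With 3 mice against 3, an exact two-sided permutation test of a single value cannot go below p = 0.1.

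None of the 40 genes passed the test between genotypes: adjusted p-values from edgeR's quasi-likelihood test with Benjamini-Hochberg adjustment over 12653 genes ran from 0.654 to 0.996. The background was the same, with 0 of 12653 genes (0%) below 0.05, so the zero says nothing particular about these genes. DESeq2 called 169 of 12638 genes (1.34%), and none of the 40. At an unadjusted edgeR p under 0.05, 2 members were lower (Cars2 and Tars2) and 0 higher, beside 3.13% and 3.43% of all genes. The 3 mutant mice lay wholly below the 3 WT mice for 5 members (Cars2, Tars2, Eprs, Hars2, Rars2) and wholly above them for 2 (Sars2, Ears2), beside 7.67% and 6.89% of all genes tested. Hars2, Rars2 and Ears2, the mitochondrial histidine, arginine and glutamate enzymes, are named because their values did not overlap. Leaving out mouse 3 of either genotype left 0 members lower at an unadjusted p under 0.05, and leaving out any other single mouse left 1.

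The intervals bound how large a difference these data leave room for. For 36 of the 40 genes the 95% interval of the fold change lay within 2-fold in either direction, and for 15 within 1.5-fold. The count within 2-fold was 31 to 36 with 1 mouse left out and 27 with sex as a covariate, a fit added after the data were seen. Over all genes tested the share within 2-fold was 53.1%, and over the 8697 genes in the members' own range of mean CPM (14.5 to 585, Lars2 aside) it was 72.3%. The exceptions to the 2-fold bound were Lars2, Iars2, Wars2 and Aimp1. Within 1.5-fold lay 1601 of the 12653 genes tested, and this count was not taken for genes in the members' CPM range. Of the members within 1.5-fold, 12 were among the 20 cytosolic genes and 3 among the 16 mitochondrial genes without Lars2. Among WT mice the members had a median coefficient of variation of 10.9%, against 22.1% over all genes tested. Their median WT FPKM was 38.1 against 12.6, and the coefficient was not compared among genes of similar level.

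**Figure D3:**
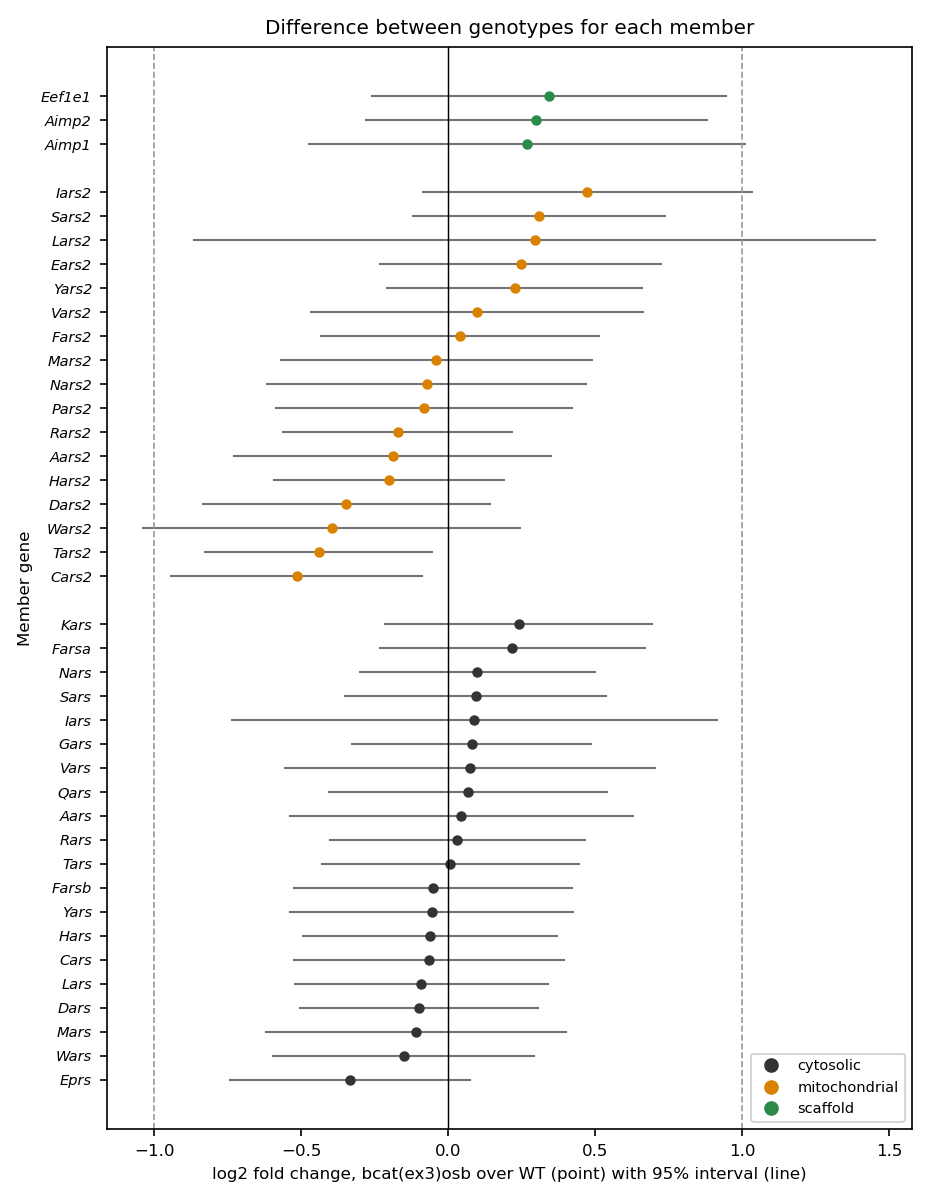
Log2 fold change (bcat(ex3)osb over WT) of the 40 genes with 95% intervals from edgeR, grouped by location. Only the intervals of Cars2 and Tars2 leave out 0, neither with an adjusted p below 0.05, and that of Lars2 is the widest.

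The cytosolic synthetases had a median log2 fold change of 0.02, with 11 positive and 9 negative values between -0.33 and 0.24. The median over all genes tested was 0.00. The 8 members of the multi-synthetase complex had a median of -0.03 and the 12 outside it 0.03. Class I and class II enzymes, which differ in the fold of the catalytic domain, had medians of -0.06 (9 genes) and 0.06 (10 genes). Without WT mouse 2 the median over the 20 genes was -0.11.

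Eprs (chr1:185361417-185428360, GRCm38.p6), which encodes a fused glutamate and proline enzyme, was at 269, 212 and 268 CPM in the mutants and at 315, 316 and 312 CPM in WT. All 3 mutants lay below the WT mice, whose own values were nearly equal. The log2 fold change was -0.33 ± 0.18 (SE), with an edgeR adjusted p of 0.808.

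Kars, the lysine enzyme of both compartments, was at 231, 329 and 241 CPM in the mutants and at 219, 226 and 234 CPM in WT (0.24 ± 0.20, edgeR adjusted p = 0.889). Mutant mouse 2 was high and the groups overlapped, and without that mouse the log2 fold change was 0.063. Gars, the glycine enzyme that also serves both compartments, was at 208, 207 and 201 CPM against 209, 166 and 208 CPM (0.08 ± 0.18), with WT mouse 2 low. Of the 2 subunits of the phenylalanine enzyme, Farsa was at 232, 315 and 251 CPM against 202, 249 and 236 CPM (0.22 ± 0.20), and Farsb, the other subunit, was at 172, 116 and 156 CPM against 151, 141 and 168 CPM (-0.05 ± 0.21). For both subunits the genotypes overlapped, and mutant mouse 2 was the highest mutant for Farsa and the lowest for Farsb. Without that mouse both were positive, at 0.079 and 0.097.

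Wars, the tryptophan enzyme known to be induced by interferon, was at 113, 138 and 150 CPM in the mutants and at 157, 130 and 159 CPM in WT (-0.15 ± 0.19, edgeR adjusted p = 0.920). Vars was at 706, 519 and 576 CPM against 797, 415 and 498 CPM (0.07 ± 0.27). Its WT mice spread almost 2-fold, with mouse 1 highest in each genotype. Iars, the isoleucine enzyme of the cytosol, had the widest spread among WT mice after Lars2: it was at 205, 116 and 211 CPM in the mutants and at 222, 93.1 and 184 CPM in WT (0.09 ± 0.36), with mouse 2 lowest in each genotype. The remaining cytosolic genes had log2 fold changes between -0.11 (Mars) and 0.10 (Nars).

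The 16 mitochondrial genes without Lars2 had a median log2 fold change of -0.08, with 6 positive and 10 negative values between -0.52 and 0.47. Relative to the WT mean, the median mitochondrial gene lay at -0.02, -0.18 and -0.15 (log2 CPM) in the mutants and at -0.01, -0.05 and 0.02 in WT. The median cytosolic gene lay at 0.11, -0.10 and 0.02 in the mutants and at 0.05, -0.15 and 0.09 in WT. The cytosolic minus mitochondrial difference was 0.13, 0.08 and 0.17 in the mutants and 0.06, -0.10 and 0.07 in WT. The 3 mutant values were above the 3 WT values, by as little as 0.08 against 0.07.

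Cars2 (chr8:11514017-11550781), the mitochondrial cysteine enzyme, was at 34.3, 35.9 and 37.8 CPM in the mutants and at 47.7, 56.6 and 50.2 CPM in WT. The groups did not overlap. Its log2 fold change was -0.52 ± 0.19 (SE; 95% interval -0.94 to -0.09), with an unadjusted p of 0.0237 and an edgeR adjusted p of 0.654. Cars2 shares 422 exon bases with Naxd (Carkd in the file) on the opposite strand in GENCODE M21, and Carkd had a log2 fold change of 0.06 ± 0.23. Whether the counting used strand is not given in the sources used here, so reads of overlapping genes on opposite strands may be mixed.

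Tars2 (chr3:95739974-95756365), the mitochondrial threonine enzyme, was at 97.8, 87.5 and 85.4 CPM against 122, 120 and 125 CPM. Here too the groups were separate, and each genotype was tight. The log2 fold change was -0.44 ± 0.17 (95% interval -0.83 to -0.06), with an unadjusted p of 0.0298 and an edgeR adjusted p of 0.696. No other gene shares exon bases with Tars2 in that annotation.

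Iars2 (chr1:185286642-185329419), the mitochondrial isoleucine enzyme, was at 108, 145 and 143 CPM in the mutants and at 114, 68.4 and 102 CPM in WT. Its log2 fold change was 0.47 ± 0.24 with an edgeR adjusted p of 0.801, and WT mouse 1 exceeded mutant mouse 1. Without WT mouse 2 the value was 0.28, and without mouse 2 of both genotypes 0.20. Iars2 shares 2034 exon bases with Rab3gap2 on the opposite strand, whose log2 fold change was -0.20 ± 0.21. Sars2 (chr7:28741957-28753879), the mitochondrial serine enzyme, was at 58.8, 71.5 and 59.4 CPM against 46.8, 50.8 and 55.5 CPM (0.31 ± 0.19, edgeR adjusted p = 0.851). All its mutant values were above its WT values.

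The other separated mitochondrial genes differed by less. Hars2 was at 62.7, 55.5 and 60.2 CPM in the mutants and at 66.8, 70.9 and 67.4 CPM in WT (-0.20 ± 0.17), and it shares 195 exon bases with Hars on the opposite strand. Rars2 was at 67.8, 67.2 and 67.7 CPM against 82.0, 69.6 and 76.8 CPM (-0.17 ± 0.17), and Ears2 at 24.8, 28.2 and 25.9 CPM against 23.0, 19.9 and 23.6 CPM (0.25 ± 0.21). In all 3 the nearest mutant and WT mice were close, and the edgeR adjusted p-values were 0.892, 0.905 and 0.892.

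The 3 genes of lowest level per length also had negative values. Wars2 was at 13.8, 11.2 and 12.4 CPM in the mutants and at 13.1, 15.5 and 20.7 CPM in WT (-0.40 ± 0.28), and its log2 fold change was -0.20 without WT mouse 3. Nars2 was at 33.2, 27.2 and 43.2 CPM against 40.7, 35.2 and 33.0 CPM (-0.07 ± 0.24), and Mars2 at 29.7, 22.4 and 29.7 CPM against 32.8, 24.5 and 26.8 CPM (-0.04 ± 0.23). All 3 overlapped between genotypes, and the values of Nars2 and Mars2 turned positive without WT mouse 1 (0.016 and 0.087) or mutant mouse 2 (0.071 and 0.083).

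**Figure D4:**
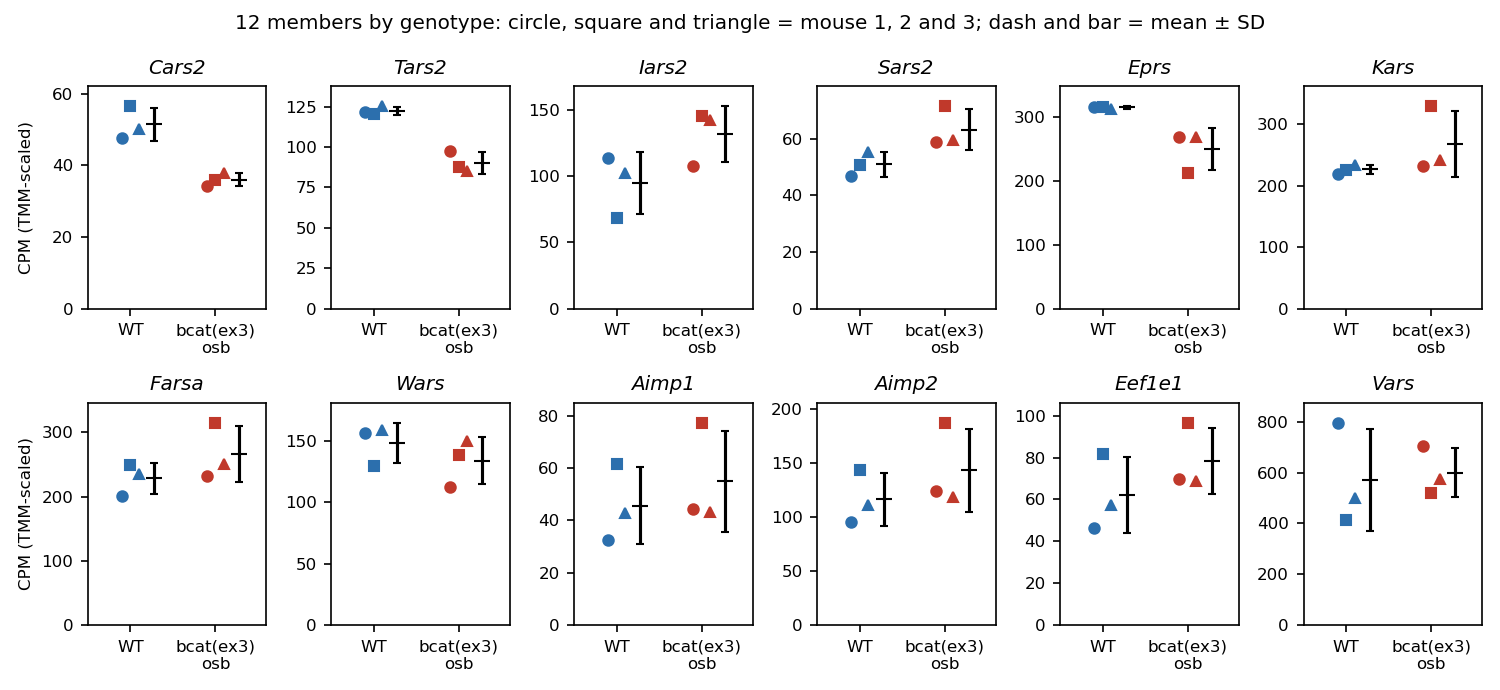
CPM of 12 genes in WT (blue) and bcat(ex3)osb (red) mice, from 0; circle, square and triangle are mouse 1, 2 and 3, and the dash and bar are mean ± SD (n = 3). Cars2, Tars2, Sars2 and Eprs show no overlap between genotypes, and the square (mouse 2) is the highest mark of both genotypes for Aimp1, Aimp2 and Eef1e1.

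The 3 scaffold genes all had positive log2 fold changes, with a median of 0.30, and none was separated between genotypes. Aimp1 was at 44.3, 77.4 and 43.2 CPM in the mutants and at 32.6, 61.5 and 42.8 CPM in WT (0.27 ± 0.32, edgeR adjusted p = 0.915). Aimp2 was at 124, 188 and 119 CPM against 95.2, 143 and 111 CPM (0.30 ± 0.25, edgeR adjusted p = 0.892). Eef1e1 was at 70.0, 96.6 and 68.8 CPM against 46.6, 81.9 and 57.2 CPM (0.34 ± 0.26, edgeR adjusted p = 0.877). In each gene mouse 2 was the highest of its genotype, in WT as in the mutants, and without mutant mouse 2 the log2 fold changes of Aimp1, Aimp2 and Eef1e1 were -0.060, 0.059 and 0.17. Aimp1 and Aimp2 share 163 and 487 exon bases with Tbck and Eif2ak1 on the opposite strand.

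Mouse 2 of each genotype also differed by gene length. Of the 13 shortest genes (1039 to 2132 bases, Lars2 left out), 8 were higher in WT mouse 2 than in the mean of the other WT mice, and 8 were higher in mutant mouse 2 than in the other mutants. Of the 13 longest (3349 to 4891 bases) these counts were 2 and 4. Across the 39 genes, which share libraries and depth, Spearman's rho between length and the deviation was -0.53 for WT mouse 2 and -0.51 for mutant mouse 2, and it was -0.42 between length and the fold change between genotypes. The scaffold genes, with a median length of 1122 bases, are among the short ones. With the length trend removed, the log2 fold changes of Aimp1, Aimp2 and Eef1e1 were 0.14, 0.17 and 0.23.

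Lars2 was by far the most variable member. It was at 1732, 3878 and 1320 CPM in the mutants and at 1060, 3148 and 1440 CPM in WT. Mouse 2 was highest in each genotype, and the groups overlapped. The log2 fold change was 0.29 ± 0.50 (95% interval -0.86 to 1.45, edgeR adjusted p = 0.938), and without mutant mouse 2 it was -0.30.

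Rn45s, the ribosomal RNA precursor, also had its highest value in mouse 2 of each genotype. It took 1.01%, 1.21% and 0.652% of counts in the mutants and 0.267%, 0.969% and 0.327% in WT (log2 fold change 0.95 ± 0.52, edgeR adjusted p = 0.813). Lars2 took 0.172%, 0.350% and 0.135% against 0.112%, 0.314% and 0.148%. Lars2 counts per Rn45s count were 0.171, 0.289 and 0.208 in the mutants and 0.419, 0.324 and 0.453 in WT, without overlap, so the genes did not keep a fixed ratio.

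The last exon of Lars2 holds a stretch found in other annotated transcripts. In its 3′ UTR (exon 21, chr9:123462048-123462119, GRCm38, plus strand), 72 bases match the transcript Gm15564 with 1 mismatch, an identity of 98.6%. The first 30 of these bases, shown because they occur letter for letter in both transcripts, are:

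Lars2: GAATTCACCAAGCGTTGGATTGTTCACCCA

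Gm15564 is not a name in the count files, the transcript AA474408 also shares 30-base stretches with Lars2, and no ribosomal RNA sequence was compared here. How reads that map to several places were counted is not given in the sources used here, so the level of Lars2 is uncertain.

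**Figure D5:**
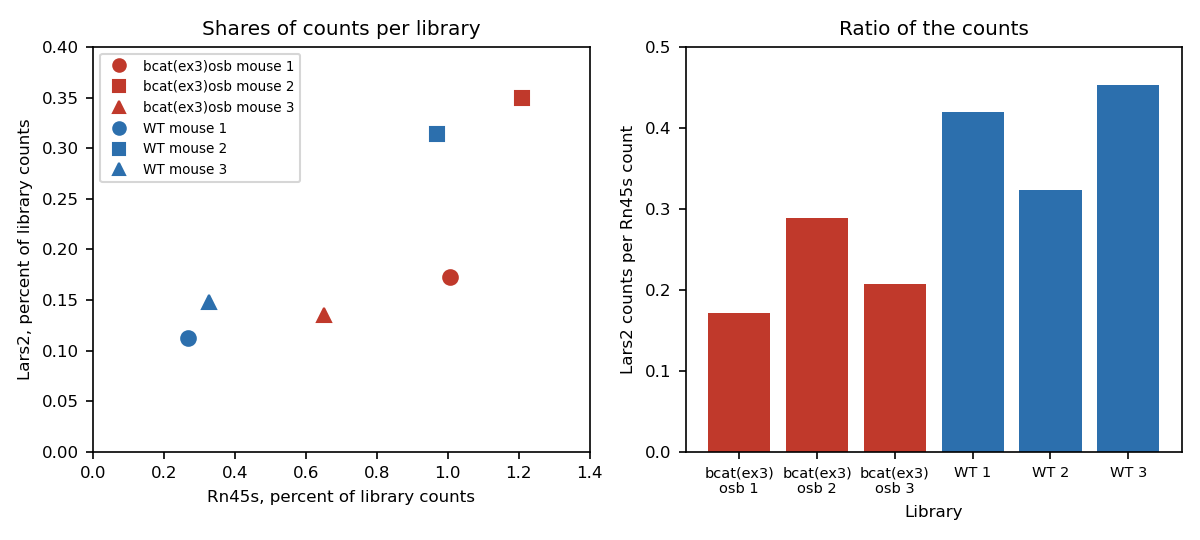
Lars2 and Rn45s counts as a percent of each library's total, and Lars2 counts per Rn45s count, by mouse. Mouse 2 is highest for both genes in each genotype, and the ratio is lower in all 3 mutants (0.171 to 0.289) than in WT (0.324 to 0.453).

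RefSeq promoter windows (250 bases before to 50 after the start, GRCm38.p6) were matched for 30 of the 40 genes. They were searched on both strands for TGATGNAA, the form of the amino acid response element that ATF4 binds, and for CACGTG, the E-box that Myc binds. TGATGNAA was present in 5 members (Aars, Gars, Iars, Tars, Yars), which is 16.7% of the 30, and in 4.51% of 27025 genes. CACGTG was present in 5 (Aars, Ears2, Farsb, Iars, Tars), again 16.7%, and in 8.09% of all genes. Windows of 60 bases upstream of the start are shown for members that carry each motif, since the transcripts of both regulators are given below. Capitals mark the match, which for TGATGNAA lies on the reverse strand. The Aars start in the promoter table lies inside the gene's RefSeq span (chr8:111027778-111055569), so both Aars windows are within that span and not upstream of its outer end.

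Gars, chr6:55037941-55038000, plus strand: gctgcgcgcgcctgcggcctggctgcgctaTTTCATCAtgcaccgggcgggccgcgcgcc
Aars, chr8:111033704-111033763, plus strand: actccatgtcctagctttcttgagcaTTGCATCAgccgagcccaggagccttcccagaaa
Tars, chr15:11399659-11399718, minus strand: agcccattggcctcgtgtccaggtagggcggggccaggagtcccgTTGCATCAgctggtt
Farsb, chr1:78488903-78488962, minus strand: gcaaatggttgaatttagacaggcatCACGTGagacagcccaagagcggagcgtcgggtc
Aars, chr8:111033670-111033729, plus strand: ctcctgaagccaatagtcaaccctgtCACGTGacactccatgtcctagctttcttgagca
Iars, chr13:49682035-49682094, plus strand: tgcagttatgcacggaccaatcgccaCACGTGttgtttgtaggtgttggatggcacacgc

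The matches are descriptions of sequence, and binding was not measured. Among the 5 members with TGATGNAA, log2 fold changes lay between -0.06 (Yars) and 0.09 (Iars), and none of the 5 was separated between genotypes. For the 5 with CACGTG they lay between -0.05 (Farsb) and 0.25 (Ears2). Of those 5 only Ears2 was separated, higher in the mutants, beside 6.89% of all genes tested. The 13 cytosolic synthetases known as ATF4 targets had a median log2 fold change of 0.01 and the other 7 cytosolic ones 0.03. Aars, which is in both motif sets and among the 13, shares 1326 exon bases with Exosc6 in GENCODE M21. They lie on the same strand, so strand cannot tell their reads apart there, and Exosc6 had a log2 fold change of 0.32 ± 0.25.

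Myc was at 1012, 1011 and 1080 CPM in the mutants and at 639, 570 and 598 CPM in WT. The groups were far apart, with a log2 fold change of 0.78 ± 0.17, yet the edgeR adjusted p was 0.333. Atf4 was at 116, 188 and 113 CPM against 77.7, 125 and 99.8 CPM (0.46 ± 0.27, edgeR adjusted p = 0.848), with overlap. The transcripts of both regulators had positive fold changes, and the median log2 fold change of the cytosolic synthetases was 0.02. Protein and activity of both regulators were not measured, and a link between these values was not tested.

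Of 26 tested genes of the amino acid response, 16 had positive and 10 negative fold changes, the median was 0.15, and 6 were higher in the mutants without overlap. The share of all genes that were higher without overlap was 6.89%. None passed the test, and 3 were higher at an unadjusted edgeR p under 0.05, beside 3.43% of all genes. These were Ddit4, an inhibitor of mTOR signalling, at 44.6, 36.5 and 33.0 CPM against 11.0, 19.6 and 19.7 CPM (1.18 ± 0.29, edgeR adjusted p = 0.438), Cebpb, a transcription factor of myeloid cells as well as of stress, and Asns. Cebpb was at 115, 155 and 126 CPM against 50.4, 83.8 and 75.2 CPM (0.92 ± 0.24). Asns, asparagine synthetase, was at 32.8, 33.0 and 27.7 CPM against 24.4, 18.7 and 18.5 CPM (0.60 ± 0.22).

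The partners of charging, which edit, export or modify transfer RNAs, showed no common direction: 9 of 19 had positive and 10 negative fold changes, with a median of -0.06. Of these, 4 were higher and 2 lower without overlap, beside 6.89% and 7.67% of all genes tested. Sephs2, which makes the selenium donor for selenocysteine, was at 201, 221 and 186 CPM against 163, 145 and 167 CPM (0.36 ± 0.17). Mtfmt, which formylates the mitochondrial initiator, was at 32.8, 39.4 and 29.3 CPM against 24.3, 26.8 and 28.1 CPM (0.36 ± 0.21), and Tarsl2, a further threonine enzyme, at 15.7, 19.1 and 15.7 CPM against 21.0, 21.7 and 22.2 CPM (-0.36 ± 0.22). Of 9 elongation factors, 8 had positive fold changes (median 0.28), and none was separated between genotypes. Relative to the WT mean, the median elongation factor lay at 0.07, 0.60 and -0.07 (log2 CPM) in the mutants and at -0.31, 0.32 and -0.03 in WT, so mouse 2 was highest in each genotype.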

How the data were processed

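RNA of 6 mice, 1 library each, was measured with Illumina's TruSeq Stranded Total RNA chemistry, per the labels. The submitters' processing notes name the build mm10 and the tools featureCounts 1.5.0-p3, STAR 2.5.2b and bcl2fastq 2.17. Strand setting, annotation and treatment of reads with several matches were not given in the sources used. The deposited counts are raw whole numbers for each gene. The deposited FPKM values matched, within 0.005, those recomputed from counts, gene lengths and library totals.

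Genes were kept with filterByExpr (at least 10 counts, and 15 in total), leaving 12653 of 23420. Genotypes were compared with edgeR 4.0.16 in R 4.3.3 (TMM scaling, two-sided quasi-likelihood F test, Benjamini-Hochberg adjustment over all genes, threshold 0.05). CPM are relative to the TMM-scaled library size, and log2 CPM used a prior count of 1. Standard errors came from the F statistic. On simulated counts for 12653 genes with 200 changed, over 5 runs, the test called 9.20% of 2-fold and 71.0% of 4-fold changes. DESeq2 1.42.0, limma 3.58.1, other scalings and filters, FPKM with pseudocounts, a length trend, a replicate block and leaving out each mouse were alternatives. A sex covariate and leaving out mouse 2 of both genotypes were added after the data were seen.

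Named members were the 4 cytosolic and 4 mitochondrial synthetase genes of smallest unadjusted p, the 3 highest and 3 lowest by WT FPKM, the scaffold genes, Farsa, Farsb, Eprs, Gars, Kars, Wars and Lars2. Of other pathway genes, up to 3 per list of smallest p, Atf4 and Myc were named. Hars2, Rars2, Ears2, Mars, Nars, Yars, Iars, Cd3e, Col1a1, Bglap and Lepr, named outside that rule, were chosen after their values were seen. Members and lists were chosen with earlier results of these data known. Gene positions and promoters came from RefSeq (GRCm38.p6), transcripts and exons from GENCODE M21.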

Additional observations from a re-analysis of the deposited data

How the results depend on the processing

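No member passed an adjusted p of 0.05 in the edgeR, DESeq2 or limma fits or in any of the 18 alternatives, and 10 of the 18 named members kept their direction in all of them. The lowest adjusted p of a member was 0.253, for Tars2. Over all genes, edgeR called 0; DESeq2 called 101 higher and 68 lower, and 1 was higher with the length trend removed. Leaving out 1 mouse gave 0 to 4 higher and 0 to 13 lower genes: 13 lower without bcat(ex3)osb mouse 1, and 4 higher without bcat(ex3)osb mouse 3.

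Members at an unadjusted p under 0.05 numbered 1 higher and 1 lower with the length trend removed, 0 lower with sex as a covariate and 2 higher without mouse 2 of both genotypes. With 1 mouse left out there were 0 to 1 higher (1 without WT mouse 2) and 0 to 1 lower (0 without mouse 3 of either genotype). The cytosolic median ran from -0.11 (without WT mouse 2) to 0.067 and the mitochondrial median from -0.13 to -0.06 with 1 mouse left out. The mitochondrial median was -0.17 and -0.16 on log2(FPKM + 0.1) and log2(FPKM + 1), and -0.15 with sex as a covariate. The cause was not tested.

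Of 324 recomputed member values, 22 reversed. With sex as a covariate these were Aimp1 -0.079, Farsb 0.023, Lars2 -0.51, Mars2 0.082, Nars2 0.25 and Wars 0.015. Without mouse 2 of both genotypes they were Farsb 0.031, Gars -0.034, Nars2 0.039 and Vars -0.026. With 1 mouse left out, Aimp1 ran from -0.060 to 0.54, Farsb from -0.18 to 0.10, Gars from -0.021 to 0.13, Lars2 from -0.30 to 0.88, Mars2 from -0.13 to 0.087, Nars2 from -0.27 to 0.071 and Vars from -0.11 to 0.39. The cause was not tested.

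Same-numbered mice were not taken as pairs. The deviations of the mice numbered 1, 2 and 3 correlated between genotypes at 0.110, 0.344 and 0.0567 across genes. Mice of different numbers correlated at -0.287 to 0.279. With the mouse number as a replicate block, 5 genes were called higher, and an unadjusted p under 0.05 was reached by 1 member higher and 3 members lower.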
